A study of Mus musculus with 8 samples.

Results

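H19, Igf2, Igf2r, Dlk1, Meg3, Peg3, Plagl1, Cdkn1c, Grb10 and Mest are imprinted genes that act on growth before birth, and they were taken here as a fixed list of 10 names among the 50599 gene records measured in hearts lacking Lrpprc. The list was given by name, with earlier results of these data known, and all 10 names matched a record. The question put to it was whether fetal genes return in these hearts beyond those of the sarcomere. Grb10, an adaptor protein that restrains signalling from the insulin and insulin-like growth factor receptors, rose 1.99-fold in the knockout hearts, with all 4 knockout libraries above all 4 wildtype libraries. Cdkn1c, an inhibitor of cyclin-dependent kinases, fell by 0.62 on the log2 scale. H19, Mest and Plagl1 were far higher in knockout replicates 2 and 4 than in knockout replicates 1 and 3, and none of the 3 passed the test although the mean of each was higher in the knockout. Igf2, Igf2r, Meg3 and Peg3 did not pass the test either, and Dlk1 had at most 2 counts in any heart.

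In an imprinted gene one parental copy is active and the other is silent, and which one is set by DNA methylation laid down in the egg or sperm at a control region. Many imprinted genes lie in clusters that share such a region, and many of them form one network that drives or restrains growth of the embryo and placenta and is turned down in most tissues after birth. Of the 10 genes, 5 are known to be expressed from the paternal copy (Igf2, Dlk1, Peg3, Plagl1 and Mest) and 5 from the maternal copy (H19, Igf2r, Meg3, Cdkn1c and Grb10). The values here are sums over both copies, so they carry no information on which copy was active.

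The libraries came from whole hearts of 12-week-old male C57BL/6N mice, with 1 animal per library and 4 animals per group. The group labelled wildtype carried loxP sites on both copies of Lrpprc without Cre, and the group labelled Lrpprc knockout carried the same loxP sites with a Cre active in heart and skeletal muscle. Total RNA depleted of cytoplasmic rRNA was sequenced from random primers. Lrpprc, which binds mitochondrial mRNA, fell by 2.67 ± 0.10 on the log2 scale (SE).

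Depth ranged from 35218541 to 47743376 counts per library. The mitochondrial rRNAs took 44.0% to 46.9% of the counts in the wildtype and 65.6% to 67.8% in the knockout libraries, which is why counts are given after division by size factors. Counts were also corrected for transcript length, and the resulting values are called normalised counts. Knockout replicate 3 stood apart from its group: the chi-square per degree of freedom was 36.3 to 52.9 for its pairs, 14.7 to 31.4 for the other knockout pairs and 4.65 to 10.0 for the wildtype pairs. Defining markers of cardiomyocytes were abundant in every library, with a summed normalised count of 713067 to 828269 in the wildtype and 368284 to 487048 in the knockout, and 3 of 5 were lower in the knockout. Of 6 skeletal muscle markers, Myh2, Myh4, Pax7 and Myod1 had at most 3 counts in every library.

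Of the 10 genes, 9 had enough counts for an adjusted p in the DESeq2 fit over all records, and 2 of these passed the threshold of 0.05, with Grb10 higher and Cdkn1c lower. Over all 19959 records with an adjusted p the share called was 33.7%, with 18.2% higher and 15.5% lower in the knockout, so in this fit the share among the imprinted growth genes was not above that of other records. Scaling to total counts gave 1924 records higher and 5912 lower, and scaling to total counts without mitochondrial rRNA gave 7950 and 1111, with 6 members higher and 0 lower under the latter (Grb10, H19, Igf2r, Meg3, Peg3 and Mest), where 44.3% of all records were called. Without wildtype replicate 1, 2 or 3 or knockout replicate 2, 1 member was called by DESeq2, against 28.9% to 31.3% of all records. Without knockout replicate 3 there were 5 (Grb10, H19, Meg3 and Mest higher, Cdkn1c lower), against 36.6%. The quasi-likelihood test of edgeR also called Grb10 and Cdkn1c and no other member, against 45% of all records it tested. In 1 of the 9 genes, Grb10, every knockout library lay above every wildtype library, against 16.7% of all records, and in 0 of 9 every knockout library lay below, against 16.4%. The median log2 fold change, knockout minus wildtype, was 0.45 over the 9 genes and 0.005 over all records. In bulk heart RNA, fewer cells of a type and less RNA per cell cannot be told apart.

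**Figure D1:**
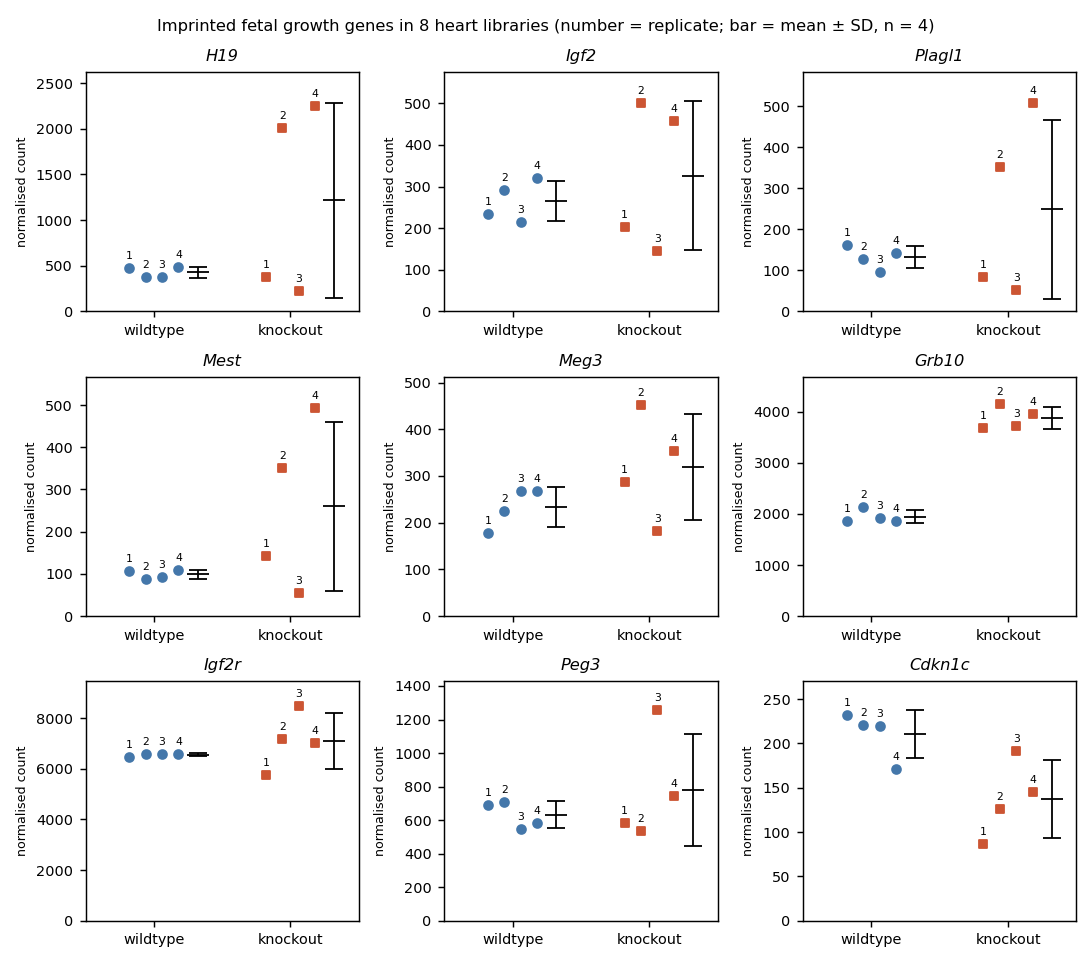
Normalised count on a linear axis from 0 for the 9 tested genes in 4 wildtype libraries (circles) and 4 knockout libraries (squares), each point marked with its replicate number and each bar giving the mean ± SD. Grb10 is the one gene with separate groups, while H19, Igf2, Plagl1, Mest and Meg3 are highest in knockout replicates 2 and 4.

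Igf2 encodes insulin-like growth factor 2, the main growth factor of the fetus in this system, and lies on chr7:142650766-142666816 (GRCm38, minus strand). Its normalised counts in wildtype replicates 1 to 4 were 235, 291, 215 and 320.3. In knockout replicates 1 to 4 they were 202, 501, 144 and 457. Knockout replicates 2 and 4 were above all wildtype hearts, whereas knockout replicates 1 and 3 were below all of them. The log2 fold change was 0.30 ± 0.35 (SE; DESeq2 adjusted p = 0.553), with a 95% interval of -0.38 to 0.98. A same-strand record, Gm49394, covers nearly the whole of the Igf2 gene, so reads in their shared exons may have been divided between the records.

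H19 is a long non-coding RNA transcribed from the other parental copy of the same domain, on chr7:142575529-142578143 (minus strand). Wildtype replicates 1 to 4 had 478, 372, 381 and 489.6 normalised counts of H19. In knockout replicates 1 to 4 they were 382, 2006, 219.5 and 2253. Knockout replicates 2 and 4 stood far above the wildtype range, knockout replicate 1 was inside it and knockout replicate 3 was below it. H19 differed by 1.50 ± 0.74 on the log2 scale (SE; DESeq2 adjusted p = 0.109, edgeR adjusted p = 0.0804). The highest knockout library had 10.3 times the count of the lowest, compared with 1.31 times in the wildtype. Without knockout replicate 3 the log2 fold change of H19 was 1.84 and its DESeq2 adjusted p 0.0078, and without knockout replicate 1 these were 1.79 and 0.0439. Leaving out knockout replicate 2 gave 1.15 (DESeq2 adjusted p = 0.318), and leaving out knockout replicate 4 gave 1.015 (DESeq2 adjusted p = 0.344).

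The H19 transcript carries a microRNA hairpin, and its 2 mature products are printed because they are the known short products of this RNA. The hairpin starts at base 997 of the 2286 bases of the H19-202 transcript. The sequences are from RefSeq (GRCm38.p6, minus strand), 5′ to 3′, with the seed, bases 2 to 8, in capitals, and the 2 seeds are different.
miR-675-5p, chr7:142577112-142577133: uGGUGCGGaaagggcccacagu
miR-675-3p, chr7:142577078-142577099: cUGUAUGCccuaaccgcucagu
The libraries did not select short RNAs, and the separate record of the hairpin was listed at 0 in all 8 libraries, so these values describe the long H19 RNA alone.

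Igf2r encodes the receptor that carries Igf2 to lysosomes and thereby removes it, on chr17:12682406-12769664 (minus strand). Igf2r had 6461 to 6587 normalised counts in the wildtype and 5741, 7181, 8457 and 7002 in knockout replicates 1 to 4. Knockout replicate 1 was below and the other 3 knockout hearts were above all wildtype hearts. For Igf2r the log2 fold change was 0.12 ± 0.12 (SE; DESeq2 adjusted p = 0.509), with an interval of -0.12 to 0.36. Under scaling to total counts the direction turned, to -0.18, while without mitochondrial rRNA in the totals it was 0.54 and called (DESeq2 adjusted p = 4.07e-06). Airn, an antisense RNA that starts within Igf2r and silences the paternal copy of Igf2r, fell by 0.95 ± 0.15 on the log2 scale (SE; DESeq2 adjusted p = 2.83e-09), from 408 ± 17.7 to 211 ± 36.5 normalised counts (mean ± SD, n = 4 each). Airn was picked out after its values were seen, and it was counted apart from Igf2r by strand.

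Grb10 lies on chr11:11930508-12038683 (minus strand). Its normalised counts were 1869, 2141, 1919 and 1856 in wildtype replicates 1 to 4. In knockout replicates 1 to 4 they were 3679, 4147, 3716 and 3964. The lowest knockout heart was above the highest wildtype heart, and the 4 hearts of each group lay close together. The log2 fold change was 0.99 ± 0.09 (SE; DESeq2 adjusted p = 4.93e-27), or 1.99-fold with an interval of 1.77 to 2.25. Grb10 passed the test under all 15 other settings, with log2 fold changes of 0.70 to 1.42. Its log2 SD over the 4 knockout hearts was 0.08, smaller than in most records, since 6.44% of the 10447 records whose mean reached 100 normalised counts had a smaller one.

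Cdkn1c, also known as p57Kip2, stops the cell cycle and lies on chr7:143458339-143461050 (minus strand). Wildtype replicates 1 to 4 had 232, 220.5, 219.6 and 171 normalised counts of Cdkn1c. In knockout replicates 1 to 4 they were 86.4, 126, 192 and 145. All knockout hearts were below wildtype replicates 1 to 3, and knockout replicate 3 was above wildtype replicate 4. Cdkn1c changed by -0.62 ± 0.24 on the log2 scale (SE; DESeq2 adjusted p = 0.0273, edgeR adjusted p = 0.00278). The DESeq2 call was lost without wildtype replicate 1, 2 or 3 or knockout replicate 1 or 2, with adjusted p from 0.0767 to 0.0974. It was also lost when libraries were scaled to total counts without mitochondrial rRNA, at -0.21 with a DESeq2 adjusted p of 0.495.

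Plagl1, a zinc finger transcription factor that regulates other imprinted growth genes, lies on chr10:13060504-13131694 (plus strand). The wildtype hearts, in the order of their replicate numbers, had 161, 128, 97.4 and 142 normalised counts of Plagl1. In knockout replicates 1 to 4 they were 83.6, 352.5, 52.3 and 507. Knockout replicates 2 and 4 were above every wildtype heart, while knockout replicates 1 and 3 were below every wildtype heart. Plagl1 differed between the groups by 0.91 ± 0.72 on the log2 scale (SE; DESeq2 adjusted p = 0.353), a difference of 0.30 when knockout replicate 4 was left out.

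Mest, a mesoderm protein of the alpha/beta hydrolase family, lies on chr6:30723547-30748465 (plus strand). Its normalised counts were 107, 87.0, 92.3 and 109 in wildtype replicates 1 to 4. In knockout replicates 1 to 4 they were 142, 351, 53.9 and 494. Knockout replicates 1, 2 and 4 were above the wildtype hearts and knockout replicate 3 was below them. Mest differed by 1.40 ± 0.64 on the log2 scale (SE; DESeq2 adjusted p = 0.0755, edgeR adjusted p = 0.0524). Without knockout replicate 3 it was 1.74, with a DESeq2 adjusted p of 6.62e-07, and leaving out knockout replicate 4 gave 0.89 (DESeq2 adjusted p = 0.145).

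Dlk1 encodes a membrane ligand related to those of Notch and lies on chr12:109452823-109463336 (plus strand). It had at most 2 counts in any library, with 3 counts in all over the wildtype and 1 count over the knockout hearts. Dlk1 was therefore not detectable above the floor of 3 counts per library in either group, and it has no fold change. Meg3 is the long non-coding RNA expressed from the other copy of the Dlk1 domain, on chr12:109541001-109571726 (plus strand). The normalised counts of Meg3 were 177, 224, 267 and 267 in wildtype and 286.5, 452, 183 and 353 in knockout replicates 1 to 4. Knockout replicates 1, 2 and 4 were above the wildtype hearts and knockout replicate 3 was among them. The log2 fold change of Meg3 was 0.45 ± 0.26 (SE; DESeq2 adjusted p = 0.183). With knockout replicate 3 left out the difference was 0.63 (DESeq2 adjusted p = 0.00553), with knockout replicate 2 left out 0.23 (adjusted p = 0.529), and without the correction for length 0.24 (adjusted p = 0.494).

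Peg3, a large zinc finger protein, lies on chr7:6703892-6730431 (minus strand). Its normalised counts were 693, 709, 546 and 581 in wildtype and 581, 533, 1258 and 744 in knockout replicates 1 to 4. Knockout replicate 3, the lowest heart for H19, Igf2, Plagl1 and Mest, was the highest for Peg3. Peg3 differed by 0.30 ± 0.25 on the log2 scale (SE; DESeq2 adjusted p = 0.383). It turned to -0.027 without knockout replicate 3 and to -0.016 under scaling to total counts, and it was 0.71 and called when the totals excluded mitochondrial rRNA (DESeq2 adjusted p = 0.00687).

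Stretches around transcription starts are shown for 3 of the genes: Grb10, the member that rose, and Plagl1 and Mest, which were high in the same 2 knockout hearts. Each runs from 250 bases before to 50 bases after a RefSeq start (GRCm38.p6) and is written 5′ to 3′ on the strand of the gene. Each is the window of its gene richest in CG dinucleotides, with these, the sites at which DNA can be methylated, in capitals. Windows were found for 8 of the 10 genes, and none for H19 or Cdkn1c. Methylation was not measured here, and it was not examined whether any window lies in a control region that carries an imprint.
Grb10, chr11:12037371-12037670, minus strand: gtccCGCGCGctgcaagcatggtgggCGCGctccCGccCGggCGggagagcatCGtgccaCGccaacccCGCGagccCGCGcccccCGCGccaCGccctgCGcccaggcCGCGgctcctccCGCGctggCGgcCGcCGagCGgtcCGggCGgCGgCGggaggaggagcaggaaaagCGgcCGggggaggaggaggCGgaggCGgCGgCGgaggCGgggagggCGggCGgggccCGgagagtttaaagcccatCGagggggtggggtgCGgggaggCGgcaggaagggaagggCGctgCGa
Plagl1, chr10:13090582-13090881, plus strand: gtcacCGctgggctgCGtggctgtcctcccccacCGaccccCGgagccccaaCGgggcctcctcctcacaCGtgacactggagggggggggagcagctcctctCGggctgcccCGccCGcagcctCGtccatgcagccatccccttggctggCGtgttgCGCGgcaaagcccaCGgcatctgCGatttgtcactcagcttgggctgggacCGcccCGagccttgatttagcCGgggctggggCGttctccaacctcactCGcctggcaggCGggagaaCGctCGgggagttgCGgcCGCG
Mest, chr6:30737800-30738099, plus strand: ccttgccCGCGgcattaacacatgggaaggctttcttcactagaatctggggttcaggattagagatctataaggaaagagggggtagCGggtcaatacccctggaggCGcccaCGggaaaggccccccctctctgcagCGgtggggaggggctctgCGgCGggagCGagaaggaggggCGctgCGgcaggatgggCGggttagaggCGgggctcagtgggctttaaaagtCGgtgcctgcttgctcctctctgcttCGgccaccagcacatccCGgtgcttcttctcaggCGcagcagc
The Grb10 window shown held 45 CG dinucleotides, and 98.1% of 32851 such windows of the genome, with a median of 7, held fewer. The other window of Grb10 held 9, which is near that median. The Plagl1 window held 26, the Mest window shown 17 and the window of Igf2r 34, while Mest also had a window with 8 and one, largely overlapping the window shown, that held 17 as well, and the 4 windows of Igf2 ranged from 2 to 24. The motif GGGGCCCC, which Plagl1 can bind and which reads the same on both strands, was in 1 of the 15 windows of these genes, at base -201 from a start of Peg3, and in 1.08% of all windows.

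H19, Igf2, Plagl1 and Mest thus shared a split of the knockout hearts into high and low ones, and this was noticed after the values were seen. Knockout replicates 2 and 4 were the highest 2 of the 8 libraries in 6 of the 9 tested genes (H19, Igf2, Meg3, Plagl1, Mest and Grb10), against 8.29% of all records. Grb10 had no such split, with 3679 to 4147 normalised counts over the knockout hearts. In Meg3 knockout replicate 1 was also above the wildtype hearts. Knockout replicate 3 was the lowest of the 8 in 4 genes (H19, Igf2, Plagl1 and Mest), against 19.1%, and both held in the same 4 genes, against 1.82%. These libraries were picked from the values of these same genes, so the shares describe the pattern and do not test it. The log2 SD over the knockout hearts was 1.69 in H19, 1.57 in Plagl1, 1.42 in Mest and 0.88 in Igf2. Over the wildtype hearts the SD was 0.21, 0.31, 0.16 and 0.27 in the same genes. Among records whose mean reached 100 normalised counts, 99.7% had a smaller knockout SD than H19 and 99.5% a smaller one than Mest. The median SD of the 9 genes was 0.20 in the wildtype and 0.56 in the knockout, and over all those records it was 0.12 and 0.22.

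The knockout hearts that were high in these 4 genes were also high in some fibroblast markers and in macrophage markers. The summed normalised count of 6 fibroblast markers was 8846 to 9654 in the wildtype hearts and 18238, 37293, 6103 and 26208 in knockout replicates 1 to 4. Of these markers, Col1a1 and Col3a1 were called higher and 0 lower, and the defining markers Pdgfra and Tcf21 were not called (log2 fold changes of -0.06 and 0.36). Most of the sum was Col3a1, with 29508 of the 37293 in knockout replicate 2. Dpt, another marker of the list, went the other way, with 864, 955, 383 and 917 in knockout replicates 1 to 4 and 1035 to 1187 in the wildtype (log2 fold change -0.51, DESeq2 adjusted p = 0.091). Knockout replicates 2 and 4 were the highest hearts in 3 of the 6, and knockout replicate 3 was the lowest in 4 of the 6. The sum of 5 macrophage markers was 2266 to 2890 in the wildtype and 3122, 6008, 2573 and 5246 in knockout replicates 1 to 4, with 4 of 5 called higher and knockout replicates 2 and 4 the highest hearts in all 5. No marker of either list was at 0. Their part in the values of the imprinted growth genes was not tested.

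**Figure D2:**
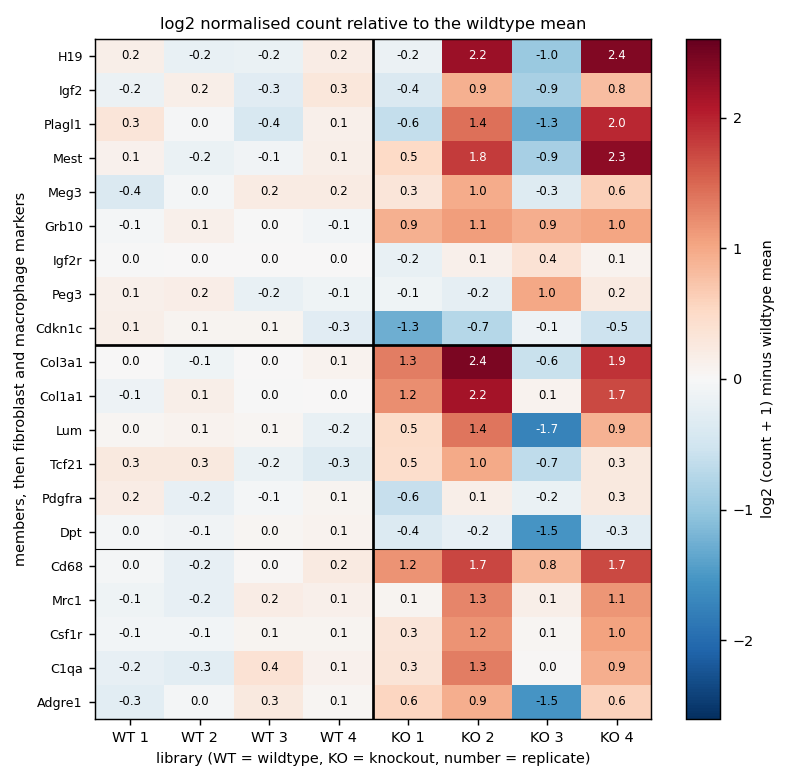
Colour and number give the log2 of the normalised count plus 1, minus the mean of the wildtype libraries, for 9 imprinted growth genes (top), 6 fibroblast markers (middle) and 5 macrophage markers (bottom) in each library. Knockout replicates 2 and 4 are raised in H19, Igf2, Plagl1, Mest, Col3a1 and Col1a1. Knockout replicate 1 is raised in Col3a1 (1.33), Col1a1 (1.21) and Mest (0.53) but not in H19, Igf2 or Plagl1. Knockout replicate 3 is lowered in H19, Igf2, Plagl1 and Mest. Among the fibroblast markers it is below the wildtype mean in Lum (-1.74), Dpt (-1.53), Tcf21 (-0.67), Col3a1 (-0.58) and Pdgfra (-0.18) but not in Col1a1 (0.10). Grb10 is raised in all 4 knockout libraries.

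Knockout replicate 3 was also the lowest heart in 4 of 5 endothelial, 4 of 5 adipose, 3 of 5 pericyte and smooth muscle and 3 of 5 atrial markers, and in 1 of 5 macrophage markers. Endothelial markers summed to 11755 to 12673 in the wildtype and 8297 to 14752 in the knockout, with 0 of 5 called. Pericyte and smooth muscle markers were lower in 1 of 5, Schwann cell markers in 1 of 3, and atrial markers were higher in 1 and lower in 2 of 5. Epicardial and mesothelial markers were higher in 1 of 4, and 0 of 4 erythroid and 0 of 5 adipose markers were called. Of the skeletal muscle list, 1 of 6 was called higher, at a sum of 6.18 to 34.7 normalised counts in the knockout.

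The records most like H19 and Mest over the 8 libraries were sought among those whose mean reached 100 normalised counts, by the root mean square difference of their log2 counts relative to the wildtype mean. For Mest they were Fn1 (0.17), H19 (0.29) and Col3a1 (0.41), and for H19 they were Fn1 (0.29), Mest (0.29) and Plagl1 (0.40). Fn1 encodes fibronectin of the extracellular matrix and Col3a1 a fibrillar collagen. The normalised counts of Fn1 were 868 to 1010.0 in the wildtype and 1369, 4354, 567 and 4624 in knockout replicates 1 to 4. For Grb10, added to this search after its values were seen, the nearest records were Rpl36a (0.09), Syngr1 (0.09) and Rpl39 (0.09), which are a synaptic vesicle protein and a pair of ribosomal protein genes whose reads may be shared with pseudogenes.

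Levels of the genes were compared with each other on the TPM scale, which counts reads per length within a library. In the wildtype hearts Igf2r was the most abundant at 21.2 ± 0.36 TPM (mean ± SD, n = 4), followed by Grb10 at 11.8 ± 0.90 and H19 at 5.66 ± 0.78, and the ranges of these 3 did not overlap. Cdkn1c at 4.36 ± 0.63, Meg3 at 3.97 ± 0.68, Igf2 at 2.83 ± 0.48 and Peg3 at 2.39 ± 0.33 followed, each overlapping the next. Plagl1 at 1.28 ± 0.26 and Mest at 1.21 ± 0.13 overlapped each other, and Dlk1 was at 0.0175 ± 0.021. In the knockout hearts Grb10 was at 21.5 ± 2.58 TPM and Igf2r at 20.9 ± 3.12, with overlapping ranges. H19 ranged from 2.43 to 29.3 TPM in the knockout, so that its rank among these genes differed from heart to heart.

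The length of the transcripts that RSEM assigned to each gene was compared as a separate value, which RSEM estimates from the same reads. For Dlk1 it is no measurement, since RSEM gives a default length of 2012 bases in the libraries with 0 counts. In 0 of the other 9 genes did it pass the exact permutation test over 70 assignments (two-sided, smallest possible p = 0.0286). After adjustment over 10 genes a single length could not have passed, so the adjusted values say nothing of stability. Meg3 came nearest, with 1925 ± 150 bases in the wildtype and 1671 ± 88.5 in the knockout (exact permutation p = 0.0571, adjusted over all 10 genes 0.571). Grb10 was assigned 4659 ± 154 and 4781 ± 75.8 bases (exact permutation p = 0.171).

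The neighbours of these genes in their imprinted domains were described as a list of 24, of which 17 were tested and 11 passed DESeq2, 4 higher and 7 lower, against 33.7% of all records, 18.2% higher and 15.5% lower. Their median log2 fold change was -0.32. One of the higher calls was Dio3, which had at most 3 counts in every wildtype library and entered the test through the knockout hearts alone. The edgeR test, which left Dio3 out, called 10 of 14 neighbours, 3 higher and 7 lower. Of all records it tested it called 45%, 22.7% higher and 22.4% lower. Scaled to total counts the list had 2 higher and 8 lower, against 9.64% higher and 29.6% lower over all records. Without mitochondrial rRNA it had 5 and 5, against 38.9% and 5.43%. In the Grb10 domain, Cobl, an actin nucleator, rose by 1.25 on the log2 scale from 59.5 ± 10.7 to 140.1 ± 23.6 normalised counts, whereas Ddc, the aromatic amino acid decarboxylase, fell by 1.45 from 51.5 ± 11.7 to 19.3 ± 7.13. Next to Igf2r, Slc22a3, a transporter of organic cations, fell by 3.02 from 92.4 ± 3.37 to 11.5 ± 1.63. Copg2, which overlaps the end of Mest on the opposite strand and encodes a coat protein of transport vesicles, rose by 0.81, and its lowest knockout heart (1021) was above its highest wildtype heart (679).

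Next to Peg3, the zinc finger gene Zim1 fell by 3.17 on the log2 scale, from 80.0 to 122 normalised counts in the wildtype to 3.64 to 30.0 in the knockout, by 2.22 without the correction for length and by 4.0 without knockout replicate 2. In the domain of Cdkn1c, Tssc4 rose by 0.58, a call that was lost under scaling to total counts at 0.28. Of the neighbours picked out after their values were seen, the potassium channel gene Kcnq1 fell by 0.90, from 719 ± 57.8 to 384 ± 23.3. Kcnq1ot1, the antisense RNA that silences Cdkn1c on the paternal copy, was at 2934 ± 79.6 in the wildtype and 3094 ± 300 in the knockout (log2 fold change 0.08, DESeq2 adjusted p = 0.577). In the domain of Dlk1 and Meg3, the non-coding RNAs Rian and Mirg, also named outside the rule, did not pass the test.

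**Figure D3:**
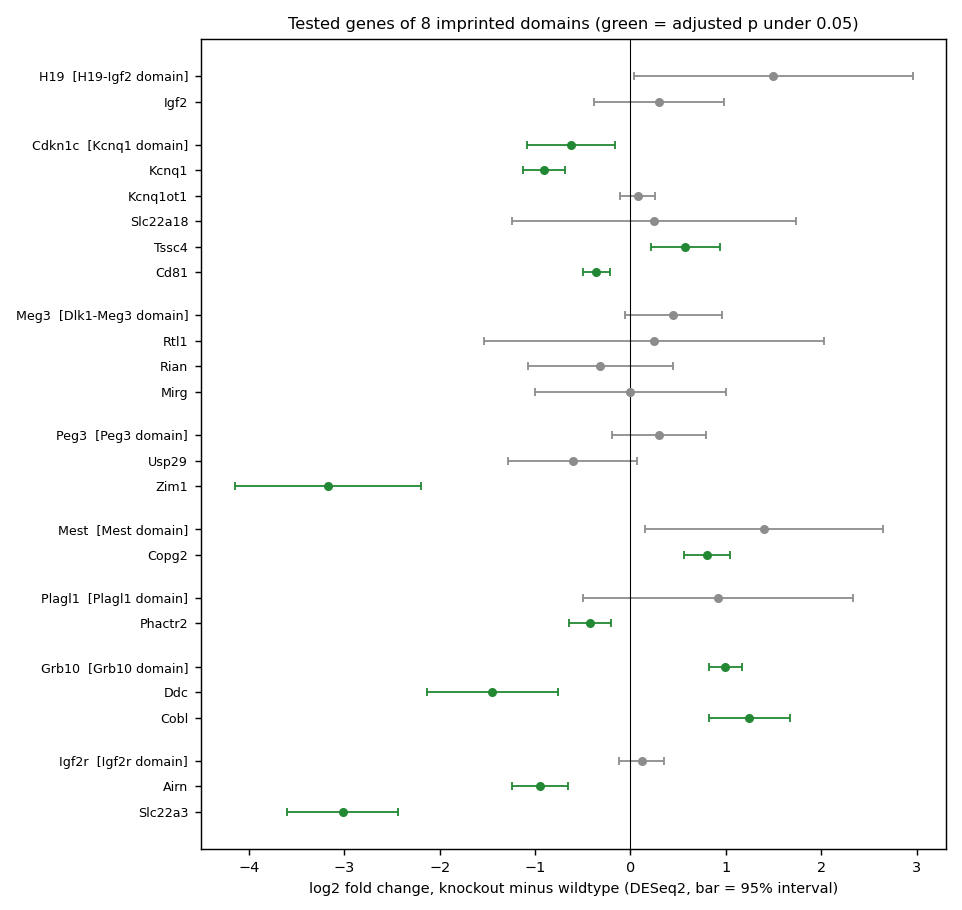
Log2 fold change, knockout minus wildtype, with its 95% interval for the tested genes of 8 imprinted domains, each headed by its member, with genes past the DESeq2 threshold in green and the others in grey. Within single domains genes lie on both sides of 0, as Cobl and Ddc do beside Grb10, and Dio3 is not drawn because all its wildtype libraries had at most 3 counts.

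Of 30 imprinted genes in other domains, 26 were tested and 8 passed DESeq2, 2 higher and 6 lower, against 33.7% of all records, with a median log2 fold change of -0.30. Scaled to total counts there were 2 higher and 13 lower, against 9.64% higher and 29.6% lower over all records. Without mitochondrial rRNA there were 8 higher and 2 lower, against 38.9% and 5.43%. Peg10, a gene derived from a retrotransposon, rose by 1.41, from 30.1 to 37.2 normalised counts in the wildtype to 50.8 to 105.5 in the knockout. Ppp1r9a (neurabin, a scaffold of protein phosphatase) fell by 0.96, Asb4 by 0.95 and the non-coding RNA Peg13 by 0.84. The call of Asb4 was lost without wildtype replicate 1, at an adjusted p of 0.0503 in DESeq2, and under scaling to total counts without mitochondrial rRNA, at -0.51 and 0.203.

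The insulin-like growth factor system comprises the ligands, receptors, binding proteins and proteases that act around Igf2, Igf2r and Grb10. Of 18 such genes, 17 were tested and 11 passed DESeq2, 7 higher and 4 lower, against 33.7% of all records, with a median log2 fold change of 0.50. Scaled to total counts there were 6 higher and 4 lower, against 9.64% higher and 29.6% lower over all records. Without mitochondrial rRNA there were 11 higher and 4 lower, against 38.9% and 5.43%. Irs1, the docking protein on which insulin and growth factor receptors act, fell by 1.69, from 2186 ± 308 to 678 ± 96.8 normalised counts. Among the proteins that bind insulin-like growth factors, Igfbp2 rose by 3.38 from 4.22 ± 2.06 to 45.3 ± 11.1, while Igfbp5 fell by 1.30. Igfals, which holds circulating complexes together, fell by 1.29.

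Pappa, a protease that cleaves such binding proteins, rose by 2.27 on the log2 scale, from 33.9 to 68.4 normalised counts in the wildtype to 149 to 286 in the knockout. Stc1, a stanniocalcin, from a family that inhibits this protease, rose by 1.62. Picked out after their values were seen, the growth factor receptor gene Igf1r rose by 0.80, and Grb14, the adaptor of the same family as Grb10, fell by 0.88 from 1830.0 ± 107 to 995 ± 73.6.

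**Figure D4:**
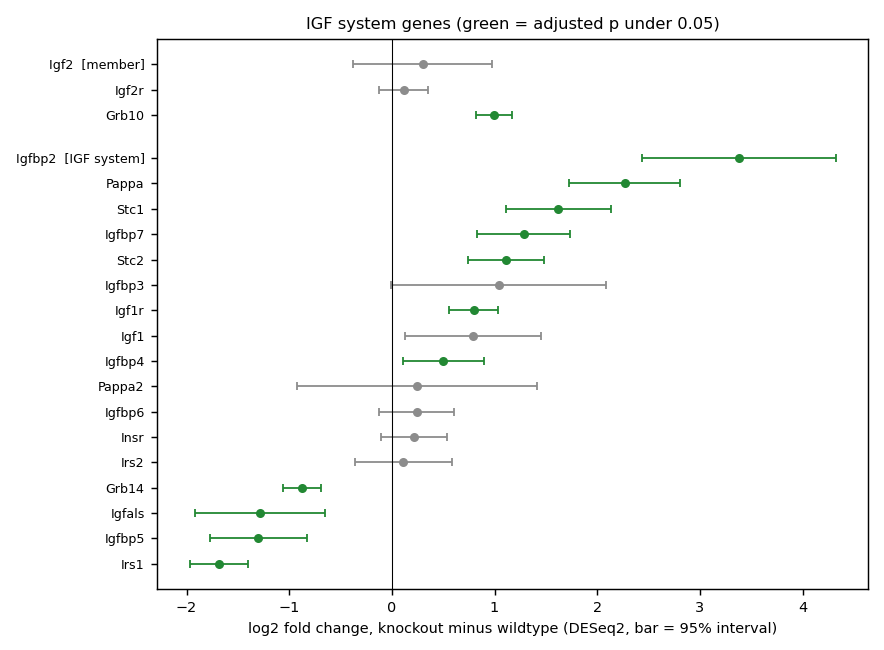
Log2 fold change, knockout minus wildtype, with its 95% interval for 3 imprinted members and 17 tested genes of the insulin-like growth factor system, with genes past the DESeq2 threshold in green and the others in grey. Grb10 is on the higher side and Grb14 and Irs1 are on the lower side, while the intervals of Igf2 and Igf2r cross 0.

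As a measure of fetal genes outside imprinting, 10 oncofetal genes and 8 genes of the fetal sarcomere and natriuretic peptides were read from the same fit. Of the oncofetal genes, 7 were tested and 3 passed DESeq2, against 33.7% of all records, with Hmga1, a chromatin protein, higher by 0.60 and Plag1, a zinc finger protein related to Plagl1, lower by 0.43, alongside Mycn, whose groups overlapped and which edgeR did not call (adjusted p = 0.0653). Without wildtype replicate 2 or 4 or knockout replicate 2, 1 of 6 tested was called, against 30.1% to 31.3% of all records. Scaling to total counts gave 0 higher and 2 lower, against 9.64% higher and 29.6% lower over all records. Without mitochondrial rRNA there were 2 higher and 0 lower, against 38.9% and 5.43%. The call of Plag1 was lost without wildtype replicate 1, 2 or 4 or knockout replicate 2 or 4, and under scaling to total counts without mitochondrial rRNA, where it was at -0.014. That of Hmga1 was lost under scaling to total counts. Lin28a was listed at 0 in every library. Of the sarcomere and natriuretic genes, 7 of 8 passed, 5 higher and 2 lower, against the same 33.7%, with a median log2 fold change of 1.57. Myh7, the slow myosin heavy chain, rose by 4.10, Nppb by 2.44 and Acta1 by 2.43, and Myl7 and Acta2 fell by 3.54 and 1.16. Myl7 is also a marker of atrial tissue, and the atrial marker Sln fell by 2.84 on the log2 scale. Acta2 is also made by smooth muscle, where Myh11 fell by 1.16 and Cnn1 was at -1.51, past the threshold of edgeR (adjusted p = 0.03995) and not of DESeq2 (adjusted p = 0.123). The part of these tissues was not tested. The difference between these lists and the imprinted growth genes was not tested.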

How the data were processed

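Reads of 8 heart libraries, grouped by their titles into 4 wildtype and 4 knockout, were aligned by the authors with bowtie2 within RSEM 1.2.31 to GENCODE M13 transcripts (mm10) as reverse-stranded pairs. The authors deposited expected counts, TPM values and other values of transcript length in bases for each gene. RSEM divides reads shared between genes, so records in the same family or on the same strand are less certain. A deposited table of the authors' own comparison (fold changes and p-values) and a table with 8 columns of normalised counts were not used. GENCODE M21 gave symbols and GRCm38 positions for 50339 of the 50563 Ensembl identifiers.

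Expected counts were rounded and fitted on the whole table with DESeq2 1.42.0 in R 4.3.3, with a term for genotype alone, size factors by the median of ratios, and an offset made from the effective lengths. The authors also used tximport and DESeq2 1.16.1, and their design terms are not given in the sources used here. P values of the main fit were adjusted by Benjamini-Hochberg over the 19959 records that DESeq2 kept after its filtering, and 0.05 was the threshold. DESeq2 without the offset and edgeR were run on simulated counts whose spread was taken from the wildtype libraries alone. The fit with the offset was not checked in this way. The wider spread of the knockout libraries and their shift in mitochondrial rRNA were not part of the simulation. The fit was repeated with edgeR 4.0.16 (TMM), without the offset, on records reaching 10 counts in 4 libraries, with nuclear size factors, scaled to total counts including or excluding mitochondrial rRNA, with a replicate block, and with each library left out. Transcript lengths were tested by exact permutation, with RSEM's effective length as the alternative.

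By rule, the genes named are the 10 members, Lrpprc and, of each other list, at most 3 largest rises and 3 largest falls past the threshold without overlap between groups, together with the 3 records nearest in pattern to each of the 3 members with the largest changes, of which Dlk1 was at the floor of 3 counts. Airn, Kcnq1, Kcnq1ot1, Rian, Mirg, Dio3, Zdbf2, Igf1, Igf1r, Grb14, Mycn and Lin28a, the nearest records to Grb10 and single cell type markers were named after their values were seen. The members and lists were chosen with earlier results of these data known. Each library is 1 animal, and the p-values of the fits set the difference between groups against the spread between these animals. The fits use 1 value of spread per gene for both groups, although the median log2 SD was larger in the knockout.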

Additional observations from a re-analysis of the deposited data

Results flagged for a closer look

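Of 64 groups of 4 libraries examined for a value far from its group, 2 held one, where chance alone would give about 1 in 20, or 3.2. Ppp1r9a had 1100.0 normalised counts in wildtype replicate 1 and 938.6 to 958.8 in the other wildtype libraries. Peg10 had 50.8 normalised counts in knockout replicate 1 and 97.4 to 105.5 in the other knockout libraries, and knockout replicate 1 was still above every wildtype library.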

How the results depend on the processing

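Grb10 was the member called under every alternative. Scaling to total counts without mitochondrial rRNA raised the median log2 fold change of all records by 0.43. It gave 6 members called, 6 higher and 0 lower, against 38.9% higher and 5.43% lower over all records. Scaling to total counts changed that median by -0.30. It gave 15 of 27 tested other imprinted genes called, 2 higher and 13 lower, against 9.64% higher and 29.6% lower over all records. Under this scaling the log2 fold change of Igf2r was -0.18 and that of Peg3 -0.016. Leaving out 1 library at a time gave 1 to 5 members called, with the 5 reached without knockout replicate 3, and moved Peg3 between -0.027, without that library, and 0.45, without knockout replicate 2. It gave 6 to 11 other imprinted genes, 1 to 4 oncofetal genes, 10 to 11 neighbours, 10 to 12 genes of the growth factor system and 6 to 8 sarcomere genes. Of all records, 28.9% to 36.6% were called in these fits. The causes were not tested. The counts of all lists over the other settings stayed within 1.5 times the main one.

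The replicate numbers of the groups are only names: deviations of same-numbered wildtype and knockout libraries correlated at -0.07 to 0.07. With the number as a replicate block, 2 members were called, Grb10 and Cdkn1c, against 29.9% of all records. H19 was then at 0.88, and the call of Plag1 was lost (DESeq2 adjusted p = 0.144). Dlk1 and the 5 neighbours listed at 0 were not detectable at this depth.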

Other observations

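Zdbf2, an imprinted gene of another domain, had 6.31 to 11.2 normalised counts in the wildtype hearts and 10.4, 78.6, 93.4 and 26.7 in knockout replicates 1 to 4 (log2 fold change 2.61, DESeq2 adjusted p = 0.000125), while edgeR gave a log2 fold change of 1.105 (adjusted p = 0.0548). Knockout replicate 1 lay within the wildtype range. Dio3, the deiodinase gene at the end of the domain of Dlk1 and Meg3, had at most 1.37 normalised counts in the wildtype and 5.54, 11.8, 0 and 10.4 in knockout replicates 1 to 4, so that it was at the floor in 1 group and neither a fold change nor a p is given. Igf1, the postnatal counterpart of Igf2, had 369 to 591 normalised counts in the wildtype and 852, 1160, 270.2 and 925 in knockout replicates 1 to 4 (log2 fold change 0.79, DESeq2 adjusted p = 0.0572), with knockout replicate 3 again the lowest of the 8 hearts. These genes were picked out after their values were seen.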
